A study of Mus musculus with 6 samples.

Results

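The genes described here encode 9 molecules with which circulating leukocytes bind the vessel wall: the endothelial immunoglobulin-family receptors Icam1, Icam2 and Vcam1, the vascular selectins Sele and Selp, the selectin ligand Selplg, and the leukocyte integrin subunits Itgal, Itgam and Itgb2. They were chosen by name, as a set of known function, and all 9 were found among the 24318 rows of the table. Expression was measured by paired-end RNA sequencing of whole liver from C57BL/6 mice of the genotype VEcadCreERT2/TAK1flox/flox. In these mice a Cre recombinase that tamoxifen activates is driven by the promoter of VE-cadherin, and it removes a loxP-flanked part of the TAK1 gene (Map3k7) in endothelial cells. The knockout group is 3 libraries from mice given tamoxifen, and the control group is 3 libraries from untreated mice of the same genotype. Both groups therefore carry Cre and the flanked alleles, tamoxifen was given to 1 group only, and its effect and that of the deletion cannot be told apart. The age of the mice and the time after tamoxifen are not given in the sources used here.

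Leukocytes leave the blood in steps. Selectins on activated endothelium (E-selectin from Sele, P-selectin from Selp) catch sialylated, fucosylated sugars on leukocyte proteins such as PSGL-1, the product of Selplg, and the cell rolls. Chemokines then switch the leukocyte integrins into a binding state. The beta 2 subunit encoded by Itgb2 pairs with the alpha subunit of Itgal to form LFA-1, which binds ICAM-1 and ICAM-2, or with that of Itgam to form Mac-1, which binds ICAM-1, fibrinogen and complement fragments. VCAM-1 is bound by integrins that contain the alpha 4 subunit. P-selectin is also stored in platelets, and PSGL-1 and the beta 2 integrins are made by most leukocytes. Liver sinusoids differ from other vascular beds in that they have little selectin at rest, and much leukocyte arrest there is known to depend on ICAM-1, VCAM-1 and other receptors. Inflammatory cytokines induce Icam1, Vcam1 and Sele through NF-kB, whereas Icam2 is made constitutively.

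The stretch of DNA next to the transcription start is shown for 3 of these genes, Icam1, Sele and Itgam. In each, every knockout level lay above every control level. This also held for Selp, whose window is not shown. RefSeq (GRCm38.p6, which is not the authors' build) gave a window of 250 bases before to 50 bases after the start for 4 of the 9 genes, Icam1, Sele, Selp and Itgam. Capitals mark GGANNTTCC, letters that resemble an NF-kB site, in the first 2 sequences, and GAGGAA, the core bound by the myeloid factor PU.1, in the third (N is any base, both strands were searched). The windows are those of Icam1 at chr9:21015690-21015989, of Sele at chr1:164047984-164048283 and of Itgam at chr7:128062390-128062689, all on the plus strand.
Icam1: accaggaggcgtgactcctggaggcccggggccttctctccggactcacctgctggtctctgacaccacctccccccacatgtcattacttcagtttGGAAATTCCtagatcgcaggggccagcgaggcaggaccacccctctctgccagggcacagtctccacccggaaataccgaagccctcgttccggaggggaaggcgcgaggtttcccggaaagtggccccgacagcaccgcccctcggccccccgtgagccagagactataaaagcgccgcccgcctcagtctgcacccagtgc
Sele: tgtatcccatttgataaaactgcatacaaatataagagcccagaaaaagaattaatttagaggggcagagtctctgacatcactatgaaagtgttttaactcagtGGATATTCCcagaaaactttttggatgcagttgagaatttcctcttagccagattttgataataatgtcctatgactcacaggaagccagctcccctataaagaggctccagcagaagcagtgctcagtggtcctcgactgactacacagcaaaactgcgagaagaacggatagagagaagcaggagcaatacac
Itgam: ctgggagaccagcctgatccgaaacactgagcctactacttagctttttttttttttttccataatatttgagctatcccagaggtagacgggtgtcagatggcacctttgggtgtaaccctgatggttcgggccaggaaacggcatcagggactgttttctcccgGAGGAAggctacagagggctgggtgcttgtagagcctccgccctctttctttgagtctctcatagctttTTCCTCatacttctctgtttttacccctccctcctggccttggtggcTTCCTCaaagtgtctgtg

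The window of Icam1 held GGANNTTCC as GGAAATTCC, beginning 153 bases before the start, and that of Sele held it as GGATATTCC, beginning 145 bases before the start. The windows of Selp and Itgam did not contain these letters, and neither did any of the 4 contain the longer NF-kB consensus. GGANNTTCC occurred in 4.26% and the longer consensus in 8.46% of 32851 windows of the same length. TTCNNNGAA, the shape of a STAT site, was present 42 bases before the start of Icam1 and 140 bases before that of Sele, where it overlaps GGATATTCC, and occurred in 8.3% of windows. GAGGAA was found 3 times in the window of Itgam and once in that of Sele, on the minus strand, and occurred in 28.3% of windows. These matches describe the letters only. GGANNTTCC was chosen after the sequences had been seen.

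Levels are given in FPKM, in which fragments are corrected for the length of the transcript and the size of the library, so that genes can be compared with each other. Low values lay on steps of whole fragments: 1 fragment was worth 0.409 to 0.486 FPKM on a transcript of 1 kb, depending on the library, and library depths differed little (0.921 to 1.08 relative to control 1). Reading these steps as depths takes FPKM to be scaled by each library's mapped fragments, which was not checked. On that reading the libraries were shallow. Genes under 1 FPKM rest on a few fragments. Map3k7 was at 8.498, 9.02 and 9.14 FPKM in the controls and at 9.28, 9.31 and 7.35 FPKM in the knockouts (log2 fold change -0.04 ± 0.16, limma adjusted p = 0.868). Cells other than endothelium express this gene, and transcripts that lack only the flanked part still count, so the value does not check the labels. Of 5 hepatocyte markers, all abundant, Ttr and Hnf4a fell (log2 fold changes -1.24 and -0.43) and Fgb rose (0.64). Only the call of Ttr held under every alternative. The calls of Hnf4a and Fgb were marginal (limma adjusted p = 0.0413 and 0.0387). That of Hnf4a was lost in 9 of 17 alternatives and that of Fgb in 8 of 17. Both were lost whenever 1 library was left out. Control 3 had more leukocyte and endothelial RNA than the other controls. Its mean log2 level was 0.39 above the control mean for 8 pan-leukocyte genes and 0.33 above it for 12 general endothelial genes, and it was the highest control for 8 of the 9 adhesion genes. In whole tissue, more cells of a type and more RNA per cell cannot be told apart.

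Knockout livers had more RNA of nearly the whole adhesion set. Of the 8 genes that reached a mean of 0.5 FPKM over the 6 libraries, 7 rose and none fell, and Icam2 alone did not pass the test (limma on log2(FPKM + 0.5), Benjamini-Hochberg adjusted p under 0.05 over 11842 genes). Over all genes tested, 14.1% were called higher and 13% lower. All 3 knockout libraries lay above all 3 controls for 8 of the 9 genes, Sele included, and for 22.4% of all genes tested. The median log2 fold change of the 8 genes was 1.86, against -0.0007 for all genes. Selp reached the minimum only through its knockout values, and Sele, at a mean of 0.498 FPKM, just missed it.

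**Figure D1:**
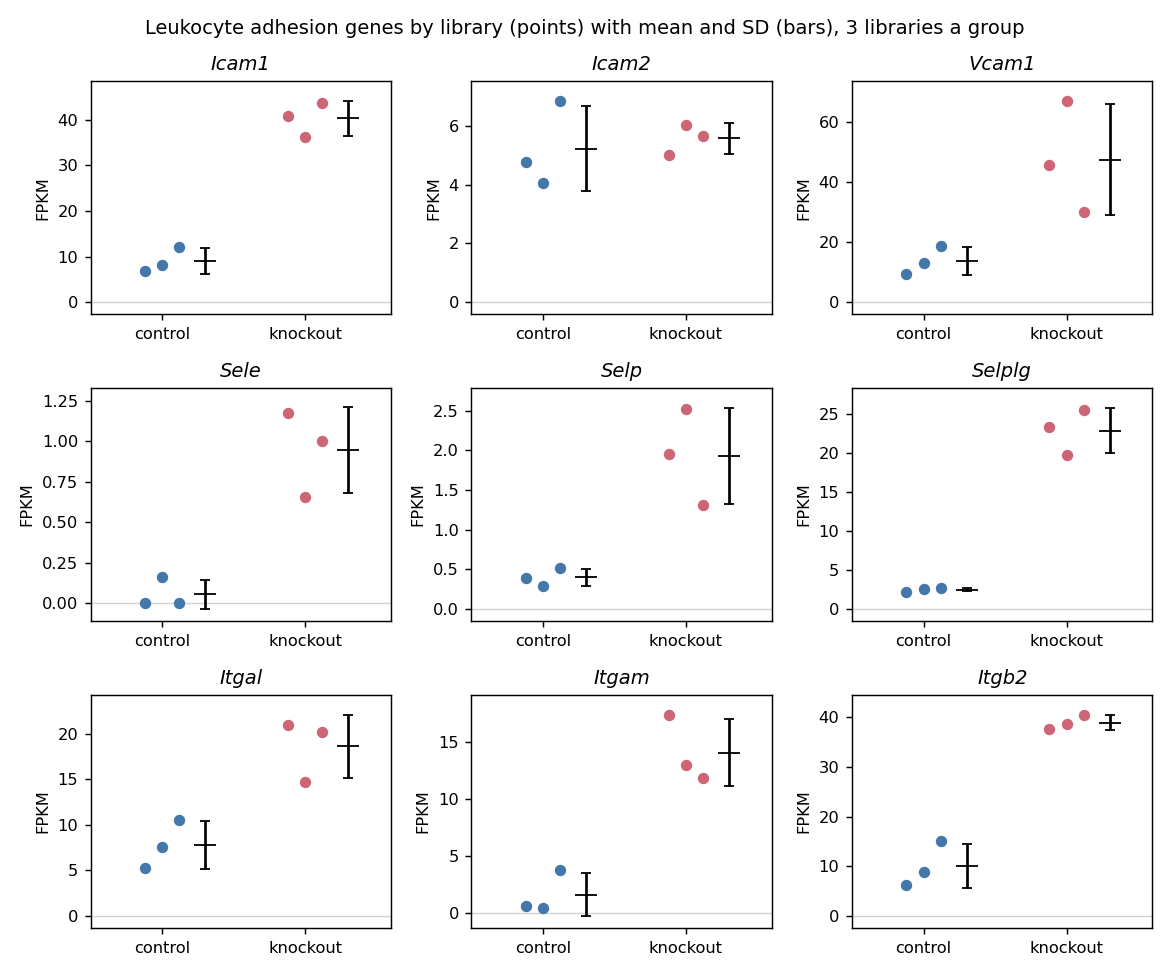
FPKM of each of the 9 adhesion genes (y axis, linear, its own range in each panel) in control and knockout livers. Points are libraries and bars are the mean ± SD of 3. Knockout points lie above every control point in all panels but that of Icam2.

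ICAM-1 is the endothelial and epithelial ligand of both LFA-1 and Mac-1. Icam1 measured 6.75, 8.12 and 12.1 FPKM in the controls and 40.9, 36.3 and 43.8 FPKM in the knockouts. The lowest knockout was about 3 times the highest control, and the spread within the knockout group was small (9.0 ± 2.80 against 40.3 ± 3.79 FPKM, mean ± SD, n = 3 each). The log2 fold change was 2.14 ± 0.21 (SE, limma adjusted p = 2.16e-04), with a 95% confidence interval of 1.67 to 2.61. Endothelium is not its only source, since hepatocytes, Kupffer cells and other leukocytes can express Icam1. The part of hepatocytes, of whose marker calls only that of Ttr was stable, was not tested.

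ICAM-2, the constitutive LFA-1 ligand of resting endothelium and platelets, did not pass the test. Icam2 measured 4.78, 4.06 and 6.84 FPKM in the controls and 5.01, 6.04 and 5.66 FPKM in the knockouts. The highest value of the 6 was a control, and the groups overlapped throughout. The log2 fold change was 0.11 ± 0.22 (limma adjusted p = 0.747), and its 95% confidence interval, -0.38 to 0.60, does not reach the change of Icam1. The difference between both genes was taken within each library as the log2 ratio of Icam1 to Icam2. That ratio went from 0.72 ± 0.24 in control to 2.75 ± 0.22 in knockout livers, a difference of 2.03 with no overlap between groups (exact two-sided permutation p = 0.1, the smallest that 3 against 3 libraries allow, and 0.15 after adjustment over 6 ratios).

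VCAM-1 binds alpha 4 integrins on monocytes, lymphocytes and eosinophils, and in liver it is made by endothelium, stellate cells and macrophages. Vcam1 measured 9.39, 12.99 and 18.9 FPKM in the controls and 45.5, 66.96 and 29.99 FPKM in the knockouts. It was the most abundant of the 9 genes by group mean in both groups, but its knockout libraries were spread more widely than those of Icam1, which took in every knockout value of Icam1 and Itgb2. Its log2 fold change was 1.73 ± 0.31 (limma adjusted p = 0.00359). The log2 ratio of Vcam1 to Icam1 did not separate the groups, at 0.57 ± 0.11 in control and 0.16 ± 0.71 in knockout livers (difference -0.41, exact permutation p = 0.4, adjusted 0.48). Single libraries moved that difference, to -0.76 without knockout 2 and to -0.05 without knockout 3. Knockout 3, the lowest knockout for Vcam1, was the highest for Icam1, and knockout 2 was the reverse.

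**Figure D2:**
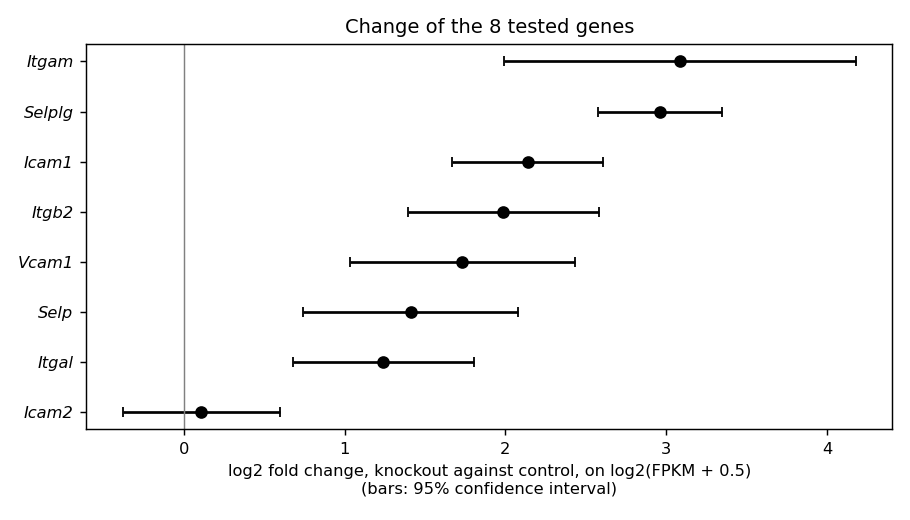
Log2 fold change of knockout against control on the log2(FPKM + 0.5) scale for the 8 tested adhesion genes (x axis), with 95% confidence intervals as bars. The interval of Icam2 includes 0, and the 7 other intervals lie above 0.

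E-selectin is nearly absent from resting endothelium and appears on activation. Sele was listed at 0, 0.159 and 0 FPKM in the controls and at 1.18, 0.656 and 0.9995 FPKM in the knockouts. Corrected for relative library depth, these values were whole multiples of 1 step, to within 0.00275 of a step, namely 0, 1 and 0 in the controls and 8, 4 and 6 in the knockouts. From the worth of 1 fragment on the transcript of 2912 bases, the knockout values came to 7.99, 3.97 and 5.98 fragments. Summed over libraries, 18 fragments stood against 1, a ratio of 18.9 per unit of depth with an exact 95% interval of 2.98 to 788, which covers counting error only. Sele was too low for the main test. With no minimum level, over 15331 genes, its log2 fold change was 1.38 ± 0.23 and limma adjusted p = 0.00621, a scale that strongly understates the change of so low a gene.

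P-selectin is held ready in the granules of endothelial cells and platelets. Selp measured 0.394, 0.289 and 0.512 FPKM in the controls and 1.96, 2.52 and 1.31 FPKM in the knockouts. The lowest knockout was above the highest control, and the mean was 4.84 times higher. The log2 fold change was 1.41 ± 0.30 (limma adjusted p = 0.00748). Platelet markers moved in the same direction. The 7 platelet genes listed summed to 4.35 to 12.6 FPKM in the controls and 23.8 to 31.0 FPKM in the knockouts. Gp1bb, Gp9 and Gp5 were listed at 0 in some controls, though none of the 7 was at 0 in every control. Gp1ba and Gp1bb were too low for the main test. Of the 5 tested, 4 were called higher. Of these calls only that of Pf4 held under every alternative, and Gp5 and Gp9 passed the minimum level only through their knockout values. Relative to the mean log2 level of these platelet genes, Selp was at -0.34 ± 0.28 in control and -0.16 ± 0.34 in knockout livers, groups that overlapped (difference 0.18, exact permutation p = 0.5, adjusted 0.556). Several of these platelet genes were near 0 in the controls, so this reference rests partly on a few fragments. The part of platelets in the change of Selp was not tested further.

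The ratio of the vascular selectins did not separate the groups. The log2 ratio of Sele to Selp was -0.71 ± 0.40 in control and -0.74 ± 0.58 in knockout livers (difference -0.03, exact permutation p = 0.9, also after adjustment), but with a pseudocount of 0.1 in place of 0.5 the difference was 0.89, and it was 0.19 without control 2 and 0.29 without knockout 2, so that its direction differed between settings. The coagulation factor gene F5, which follows Selp directly in RefSeq, had a log2 fold change of 0.09 and an adjusted p = 0.726.

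PSGL-1 is the main leukocyte ligand of P-selectin and also binds the other selectins. Selplg measured 2.25, 2.51 and 2.71 FPKM in the controls and 23.4, 19.8 and 25.5 FPKM in the knockouts. The controls lay within a narrow range and the knockouts about 9 times higher, at 2.49 ± 0.233 against 22.9 ± 2.91 FPKM (ratio of means 9.19). It had the smallest adjusted p of the set (log2 fold change 2.96 ± 0.17, limma adjusted p = 1.81e-05). The log2 ratio of Selp, the receptor, to this ligand was lower in every knockout than in every control, at -1.74 ± 0.17 in control and -3.29 ± 0.55 in knockout livers (difference -1.55, exact permutation p = 0.1, adjusted 0.15).

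All 3 integrin subunits rose. Itgb2, the beta subunit that LFA-1 and Mac-1 share, measured 6.25, 8.92 and 15.0 FPKM in the controls and 37.6, 38.7 and 40.6 FPKM in the knockouts. The controls spanned a wide range while the knockouts were nearly equal, and the log2 fold change was 1.99 ± 0.26 (limma adjusted p = 8.40e-04). Itgal, the alpha subunit of LFA-1, measured 5.24, 7.60 and 10.5 FPKM in the controls and 21.0, 14.7 and 20.2 FPKM in the knockouts. Every knockout was above every control (log2 fold change 1.24 ± 0.25, limma adjusted p = 0.00613).

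Itgam, the alpha subunit of Mac-1 (CD11b), marks neutrophils, monocytes and macrophages. It measured 0.653, 0.484 and 3.78 FPKM in the controls and 17.4, 12.9 and 11.8 FPKM in the knockouts. Control 3 stood well above the other controls, and without it the control mean fell from 1.64 to 0.568 FPKM. The log2 fold change was 3.09 ± 0.49 (limma adjusted p = 0.00197), and 3.75 without control 3 (limma adjusted p = 1.19e-04). Its ratio to both other subunits was also higher in every knockout library. The log2 ratio of Itgam to Itgal went from -2.24 ± 0.84 to -0.40 ± 0.31, and that of Itgam to Itgb2 from -2.56 ± 0.70 to -1.46 ± 0.33. Neither ratio overlapped between groups (differences 1.84 and 1.099, exact permutation p = 0.1 and adjusted 0.15 for each). Control 3 had the highest of the control ratios in both, at -1.36 and -1.86.

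**Figure D3:**
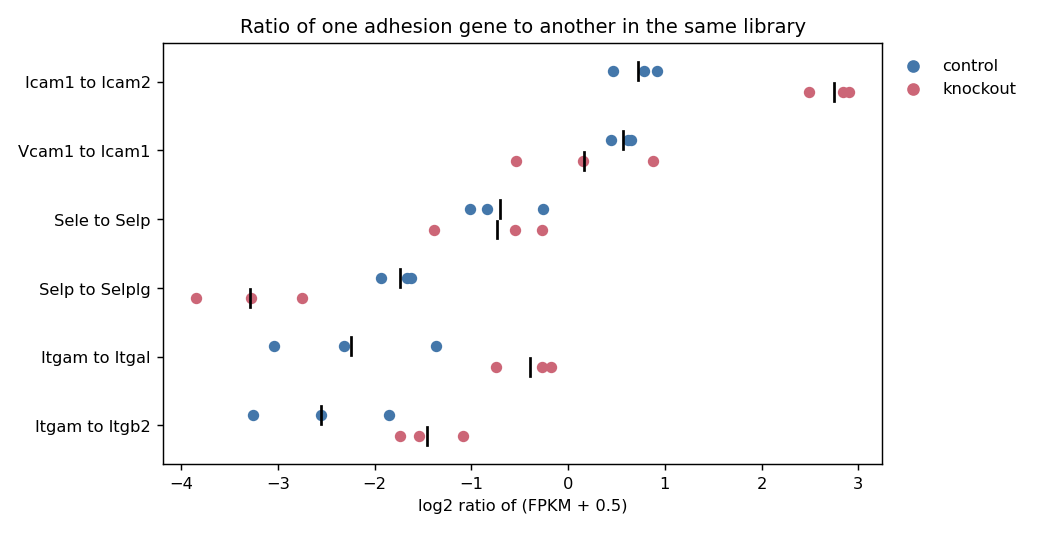
Log2 ratio of 1 adhesion gene to another within each library (x axis), with control points above knockout points in each row and means as bars. The ratios of Icam1 to Icam2 and of Itgam to Itgal and Itgb2 lay higher in all knockouts than in all controls and that of Selp to Selplg lower, while the ratios of Vcam1 to Icam1 and of Sele to Selp overlapped.

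The order of levels changed between groups. In controls Vcam1, Itgb2, Icam1, Itgal and Icam2 followed each other from 13.7 down to 5.22 FPKM on average, with each overlapping the next, and all of them were above Selplg in every library. In knockouts Vcam1, Icam1 and Itgb2 formed an overlapping leading group between 47.5 and 39.0 FPKM. Selplg, Itgal and Itgam came next at 22.9, 18.6 and 14.1 FPKM, also overlapping. Icam2 moved from the fifth to the seventh rank without a change of its own level that passed the test, below every knockout value of Itgam. Selp and Sele were last in both groups.

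Markers of the cells that make these proteins moved too. All 8 pan-leukocyte genes rose (median log2 fold change 1.82), and their summed level was 169.8 to 235 FPKM in the controls and 594 to 649.6 FPKM in the knockouts. Among them Ptprc, which encodes CD45, went from 2.60, 2.70 and 4.73 FPKM to 16.5, 14.5 and 13.7 FPKM (log2 fold change 2.04 ± 0.23, limma adjusted p = 3.87e-04). All 7 neutrophil markers found and all 6 monocyte markers rose, with medians of 4.93 and 3.48, and the summed neutrophil level went from 34.8 to 72.9 FPKM up to 1612 to 1701 FPKM. Kupffer cell markers had 3 of 6 called higher and a median of 0.76, while Clec4f, Timd4 and Marco did not pass the test. T and NK cell markers had 3 of 7 called higher and a median of 1.03, while Cd3e, Cd3g, Nkg7 and Il2rb did not pass. Over all genes tested, 14.1% were called higher. All 4 B cell markers and all 3 eosinophil markers tested were called higher, with medians of 2.04 and 2.34, several of them passing the minimum level only through their knockout values. The same holds for the called markers Mmp8 and Cxcr2 (neutrophil), F13a1 (monocyte) and Lck (T and NK cell). None of these 7 marker lists had a member called lower.

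Set against the pan-leukocyte genes in the same library, the leukocyte-side genes differed. Itgb2 overlapped between groups, at -0.69 ± 0.37 in control and -0.58 ± 0.02 in knockout livers (difference 0.11, exact permutation p = 1), a difference that became -0.10 without control 1. Itgal was lower relative to them, at -1.004 ± 0.31 in control and -1.64 ± 0.26 in knockout livers (difference -0.64, no overlap). Selplg was higher, at -2.43 ± 0.27 in control and -1.34 ± 0.15 in knockout livers (difference 1.08, no overlap), with an exact permutation p = 0.1 and an adjusted 0.143 for this and the preceding gene. Itgam was at -3.24 ± 0.83 and -2.04 ± 0.32, and control 3, at -2.29, lay within the knockout range (exact permutation p = 0.2, adjusted 0.25). What the numbers of each leukocyte type contribute to these differences was not tested.

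Endothelial markers fell. Of 12 general endothelial genes 9 fell and none rose (median log2 fold change -1.26, summed level 94.3 to 143 FPKM in control and 56.9 to 65.8 FPKM in knockout livers), and of 8 sinusoidal markers 7 fell (median -2.61). For comparison, 13% of all genes tested were called lower. Relative to the mean of the general endothelial genes, the knockout level of Icam1 was 3.42 log2 units above control, that of Vcam1 3.02, of Selp 2.70, of Sele 2.67 and of Icam2 1.40, each without overlap between groups (exact permutation p = 0.1 and adjusted 0.143 for each). The size depends on the reference. Against Cdh5 and Pecam1 only, which are 2 of the 3 genes of that list that did not pass the test (log2 fold changes 0.28 and -0.21), the differences were 2.104 for Icam1, 1.70 for Vcam1, 1.38 for Selp, 1.35 for Sele and 0.08 for Icam2, whose groups then overlapped. This second reference was chosen after the values had been seen, and since its genes hardly moved, these differences nearly repeat the fold changes themselves. Eng, the other gene that did not pass (log2 fold change -0.39, limma adjusted p = 0.105), was not part of it. Stellate cell markers, of another source of Vcam1, had 2 of 6 called higher (median 0.71), beside 14.1% of all genes tested. Lrat, Reln, Ngfr and Hand2 did not pass the test. How much of any receptor came from endothelium was not tested.

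**Figure D4:**
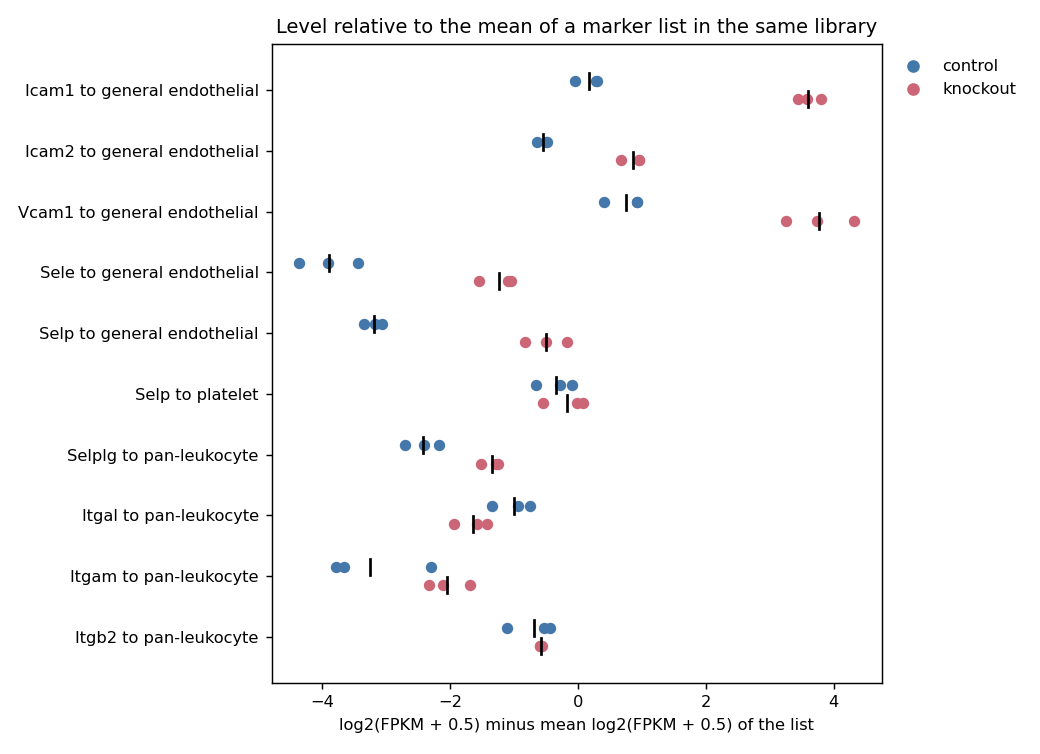
Level of each adhesion gene minus the mean log2 level of a marker list in the same library (x axis, log2 units), with control points above knockout points in each row and means as bars. The 5 receptor genes moved to the right of their controls relative to endothelial genes. Relative to leukocyte genes, Itgal moved to the left and Selplg to the right, and Itgb2 and Itgam overlapped. Selp overlapped against platelet genes.

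Most of the other integrins listed rose. Of 11 listed, 8 reached the minimum level and 6 of these rose, with none lower (median log2 fold change 1.39). Among the 6 were Itgb1 and Itga6 (log2 fold changes 0.58 and 1.17), named after their values had been seen. Itgb7, which pairs with alpha 4 and alpha E chains, went from 0.336 to 0.93 FPKM in control to 4.38 to 6.76 FPKM in knockout livers (log2 fold change 2.44 ± 0.28, limma adjusted p = 4.25e-04). Itga4, the alpha chain of the VCAM-1 receptor, went from 0.637 to 1.52 FPKM to 4.23 to 6.36 FPKM (log2 fold change 1.86 ± 0.27, limma adjusted p = 0.00151). Itgax, which encodes CD11c and follows Itgam directly on the chromosome in RefSeq, rose from 0.218 to 0.503 FPKM to 1.28 to 2.51 FPKM (log2 fold change 1.605 ± 0.31, limma adjusted p = 0.00534), and passed the minimum level only through its knockout values. Itgad, the next gene, was listed at 0 in 5 of 6 libraries. Itgb2l, a paralog of Itgb2 known from neutrophils, was listed at 0 in every control and at 1.48, 1.65 and 1.49 FPKM in the knockouts, and it too passed only through them. Icam4 and Icam5, which follow Icam1 directly, were listed at 0 in every library but control 1 for Icam4, at 0.573 FPKM.

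Selectin ligands and related mucins rose in part. Of 9 measured, 5 rose and none fell (median log2 fold change 0.76). Cd24a, a small sialylated surface protein that can serve as a ligand of P-selectin, went from 0.256 to 1.89 FPKM in control to 10.7 to 16.1 FPKM in knockout livers (log2 fold change 3.32 ± 0.38, limma adjusted p = 4.40e-04). Leukosialin, encoded by Spn, went from 0.244 to 0.962 FPKM to 4.86 to 5.96 FPKM (log2 fold change 2.34 ± 0.30, limma adjusted p = 6.96e-04). Cd44, the hyaluronan receptor with which neutrophils can hold to liver sinusoids, was at 5.66, 5.46 and 10.2 FPKM in the controls and at 19.4, 17.5 and 21.1 FPKM in the knockouts (log2 fold change 1.43 ± 0.23, limma adjusted p = 0.00236). The endothelial sialomucins Cd34, Emcn and Podxl had log2 fold changes of 0.46, 0.53 and -0.69 that did not pass the test, and were named after their values had been seen. Madcam1 and Glycam1, ligands of lymphoid venules, were at or near 0.

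Enzymes that build selectin ligands did not move as a group. Of 11 measured, 2 rose and 2 fell, shares not far from those of all genes (14.1% and 13%), with a median log2 fold change of -0.21. The galactosyltransferase gene B4galt1 rose from 8.38 to 11.9 FPKM in control to 28.5 to 32.3 FPKM in knockout livers (log2 fold change 1.57 ± 0.16, limma adjusted p = 2.70e-04). The sialyltransferase gene St3gal6 fell from 6.57 to 7.69 FPKM to 3.17 to 3.98 FPKM (log2 fold change -0.91 ± 0.18, limma adjusted p = 0.00559). The number lower was 1 without control 1 and 1 without control 2, the number higher was 4 without control 3 and 1 after rescaling to equal totals, and with no minimum level 4 were higher and 4 lower. Fut7, the leukocyte fucosyltransferase required for selectin ligands, was too low for the main test and, chosen after its values were seen, was listed at 0 in every control and at 1.02, 0.568 and 1.15 FPKM in the knockouts.

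The machinery that switches integrins on rose broadly. Of 19 measured genes 14 rose and none fell (median log2 fold change 1.07). Apbb1ip, whose product RIAM links the GTPase Rap1 to talin, measured 1.66 to 3.93 FPKM in control and 9.49 to 12.3 FPKM in knockout livers (log2 fold change 1.99 ± 0.28, limma adjusted p = 0.00107). The kinase Syk, which signals downstream of engaged integrins, went from 1.06 to 3.85 FPKM to 9.57 to 10.4 FPKM (log2 fold change 1.95 ± 0.33, limma adjusted p = 0.00272). The Src-family kinase Fgr and the exchange factor Cyth4 had log2 fold changes of 1.95 and 1.95. Many of these genes are made mainly by leukocytes, as are the pan-leukocyte genes given above, whose part in the result was not tested. Rap1a and Rasgrp2, named after their values had been seen, had log2 fold changes of -0.04 and -0.09.

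Partners of transmigration at the endothelial junction did not move in 1 direction. Of 15 measured, 6 rose and 2 fell (median log2 fold change 0.28), the latter close to the share of all genes called lower (13%). The junctional receptor Esam fell from 9.51, 10.9 and 11.1 FPKM to 4.08, 3.74 and 4.07 FPKM (log2 fold change -1.30 ± 0.17, limma adjusted p = 7.01e-04). Jam2, another junctional adhesion molecule and a binding partner of alpha 4 integrin, was the other that fell (log2 fold change -1.09, named after its value had been seen). Msn, which encodes the moesin that anchors ICAM-1 and VCAM-1 to actin, rose from 14.5 to 26.7 FPKM to 48.5 to 53.4 FPKM (log2 fold change 1.42 ± 0.21, limma adjusted p = 0.00157). The tetraspanin gene Cd9, whose product organises ICAM-1 and VCAM-1 in the membrane, had a log2 fold change of 1.33 ± 0.22 (limma adjusted p = 0.00257). Pecam1, a receptor of the endothelial junction and of leukocytes, did not pass the test (log2 fold change -0.21, limma adjusted p = 0.484).

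Cytokines that activate endothelium and the feedback genes of NF-kB were higher in part. Of 15 measured, 8 rose and none fell (median log2 fold change 0.84), but 5 did so without control 2 and 4 without knockout 1. Il1b, the cytokine interleukin 1 beta, was at 2.55, 1.51 and 0.337 FPKM in the controls and at 9.11, 6.62 and 9.89 FPKM in the knockouts (log2 fold change 2.37 ± 0.42, limma adjusted p = 0.00333). Tnfaip3, which encodes the NF-kB inhibitor A20, went from 1.21, 1.68 and 3.63 FPKM to 12.5, 9.61 and 12.04 FPKM (log2 fold change 2.25 ± 0.31, limma adjusted p = 0.00103). The other calls were those of the chemokines Ccl2 and Cxcl1 and of Nfkbia, Birc3, Relb and Nfkb2. Il1a was tested and did not pass (log2 fold change 0.98, limma adjusted p = 0.181), and its groups overlapped. Tnf itself was too low to be tested, at 0 to 0.61 FPKM in control and 0 to 1.13 FPKM in knockout livers, groups that overlapped, and Lta was listed at 0 throughout. Il6 and Ifng were too low to be tested as well. The receptor genes Tnfrsf1a, Tnfrsf1b and Il1r1 did not pass the test. All genes of this paragraph but Il1b, Tnfaip3, Ccl2 and Cxcl1 were named after their values had been seen.

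**Figure D5:**
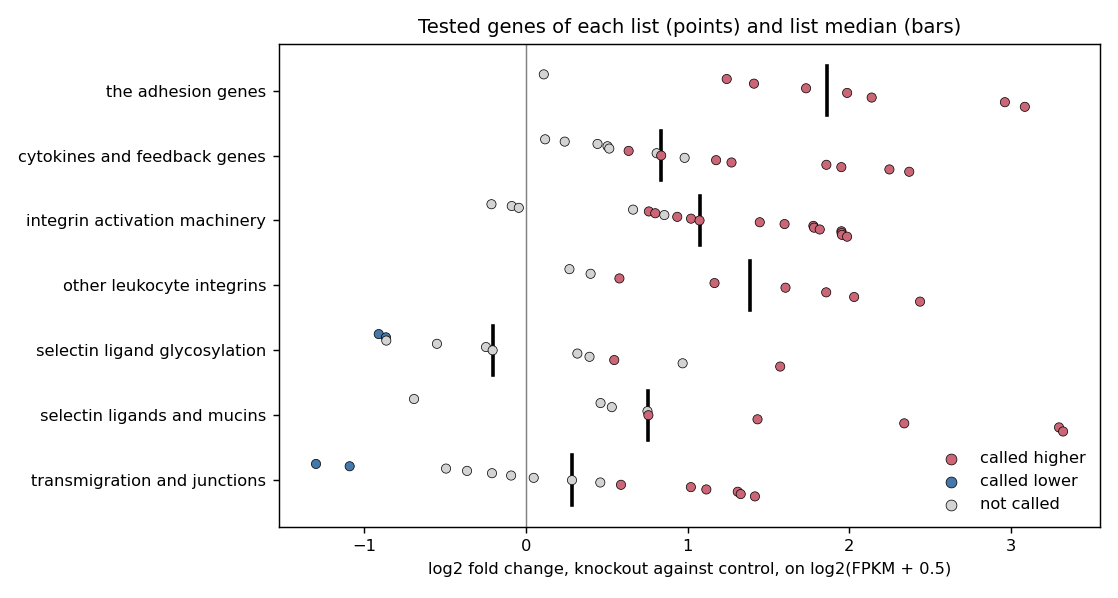
Log2 fold change of knockout against control on the log2(FPKM + 0.5) scale (x axis) for the 8 tested adhesion genes and the tested genes of 6 related lists. Points are genes, coloured by their call, and bars are list medians, from -0.21 for selectin ligand glycosylation to 1.86 for the adhesion genes.

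The genes whose profile over the 6 libraries was nearest to each adhesion gene were found by the root mean square difference of log2(FPKM + 0.5) after centring each gene, among 10289 genes that averaged 1 FPKM or more. Since the groups differ, likeness mostly reflects an equal change between groups, and 6 libraries support no correlation within them. Nearest to Icam1 were Anxa2, Irak3 and Hk2, at 0.11, 0.12 and 0.12 log2 units. Nearest to Vcam1 was Pla2g7, at 0.14, at 10.1, 12.3 and 15.6 FPKM in the controls and 49.3, 60.3 and 30.7 FPKM in the knockouts, followed by Gng2 and Med13 at 0.20 each. Pla2g7 shared both the level and the order of the knockout libraries with Vcam1. Nearest to Selp were Arhgap15, Rinl and Plat (0.11 to 0.12), and nearest to Selplg were the chemokine receptor gene Ccr1, Coro1a and Anxa1 (0.12 to 0.16). For Itgal these were Sema4b, Pld4 and Hcls1 (0.11 to 0.13), and for Itgb2 they were Card9, Col5a1 and the endothelial protein C receptor gene Procr (0.11 to 0.14). Itgam had no neighbour as close, with Stfa2l1, a neutrophil stefin, first at 0.27, then Plek and Myo1f at 0.35 and 0.41, all of which were also highest in control 3 among the controls. Icam2 was nearest to Fzd1, Ptch1 and Tead3 (0.05 to 0.07).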

How the data were processed

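RNA of whole liver was measured in 6 libraries, 3 control and 3 knockout. A TruSeq kit and paired-end sequencing were used, per the labels' protocols. The submitters' processing notes name Trimmomatic 0.33, TopHat2 2.1.0, Cuffdiff 2.2.1, Cuffnorm 2.2.1 and build mm9, and no annotation, which is therefore not stated here. The authors deposited FPKM per gene and library, which were used as they stand; a count test was therefore not used. FPKM shifts if a few abundant genes change.

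Groups were compared on log2(FPKM + 0.5) with limma 3.58.1 (R 4.3.3; trended empirical Bayes variances, two-sided tests) over the 11842 genes that averaged 0.5 FPKM or more. Alb, listed at 0 in every control, was treated as a failed estimate and left out. The threshold for a call was an adjusted p of 0.05 (Benjamini-Hochberg, all genes tested). Fold changes on this scale understate those of low genes. Log2 ratios within a library (6 between adhesion genes, 10 against marker lists) were tested by exact permutation. Named genes are all 9 adhesion genes and, per list, genes chosen from the 4 called genes with the largest change that reach 1 FPKM and do not overlap, of which those with stable calls were preferred; every other gene named was chosen after its values were seen. The adhesion genes and all lists were chosen with earlier results of these data known. Nothing says whether replicates are separate animals, so the p-values reflect only how far these samples vary, which may be technical. Relative depth came from steps between values under 0.3 FPKM, and fragment worth from single-transcript genes of at least 2000 bases in GENCODE. Alternatives were other pseudocounts (0.1 and 1), minimum levels, scalings, variance models, library weights, a replicate block, the retention of Alb and each library left out; the reference of Cdh5 and Pecam1 was added after seeing the data. Figures were drawn with matplotlib 3.10.9.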

Additional observations from a re-analysis of the deposited data

How the results depend on the processing

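The calls of Icam1, Vcam1, Selp, Selplg, Itgal, Itgam and Itgb2 held in all 119 of 119 combinations of gene and alternative run, and Icam2 passed under none of 17 (limma adjusted p of 0.299 to 0.998, log2 fold change -0.04 to 0.30). Sele entered the test only with no minimum level or, through its knockout values, without 1 control (limma adjusted p of 0.00621 to 0.0482), which says nothing about stability. Over all genes, rescaling to equal totals put the median log2 change at -0.11 and the share of calls that were higher at 39.5%, against 52.1%, and the adhesion genes called higher remained 7. Replicate numbers did not pair the libraries (correlations of deviations of -0.01 to 0.002 for equal numbers), and with the replicate block 7 adhesion genes were called higher, as without it, against 1575 higher and 1385 lower genes in all. Leaving out 1 library gave 943 to 1497 lower genes in all, against 1534, with 996 without control 1 and 943 without control 2. The same gave 4 to 9 cytokine and feedback genes higher, against 8, and 2 to 4 glycosylation genes higher and 1 to 3 lower, against 2 and 2. With no minimum level 4 glycosylation genes were higher and 4 lower, and with equal totals 1 was higher. The ratio of Sele to Selp changed direction, at 0.89 with a pseudocount of 0.1 and at -0.26 to 0.29 without 1 library, Itgb2 against pan-leukocyte genes ranged from -0.10 to 0.23, Selp against platelet genes from 0.02 to 0.37 and Vcam1 against Icam1 from -0.76 to -0.05 without 1 library. The cause of these changes was not tested. At this depth Sele and Selp rest on few fragments, and no change under 1 FPKM is precise.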
